A study of Mus musculus with 8 samples.

Results

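The forkhead genes encode transcription factors that bind DNA through a winged-helix domain, and they were chosen here as every protein-coding mouse gene whose symbol begins with Fox, a letter from a to s and a number. Of 21887 protein-coding genes in the RefSeq annotation of GRCm38.p6 (mm10), 44 met this rule, in 19 subfamilies named by letter, on 16 chromosomes. Open DNA was mapped by ATAC-seq, which cuts and tags accessible chromatin with the enzyme Tn5, in a clonal FUCCI2 line of mouse induced pluripotent stem cells. FUCCI2 is a pair of fluorescent cell-cycle reporters. Every group came from that clone, was kept on irradiated feeders, and had LIF, FBS and blockers of GSK3 and of MEK in its KO-DMEM medium. The series held 8 libraries from 50000 cells each, as replicates A and B of 4 groups. Mitotic cells were shaken off following a 6 hour arrest with nocodazole, a spindle poison, at 200 ng/ml. Released cells had the same arrest followed by 1 or 3 hours in fresh medium, and asynchronous cells were untreated.

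The data were a single catalogue of 76872 accessible regions for the 8 libraries together, with a chromosome, a start and an end and no value per library. They therefore gave positions and widths of accessible DNA, no depth and no difference between the groups. Openness in a few cells or libraries and openness in all of them cannot be told apart. As a check of the labelled cell type, all 8 pluripotency genes chosen as markers (Pou5f1, Sox2, Nanog, Klf4, Zfp42, Tdgf1, Dppa4 and Utf1) had a region within 1 kb of an outer limit of the gene. Of 8 fibroblast genes that would mark the feeder cells, only Col1a1 had such a region. Over all protein-coding genes, 62% had such a region. Col1a2, Col3a1, Dcn, Lum, Postn and Thy1 had none inside the gene either, and Pdgfra had 3. The part of feeder cells in the regions below was not tested.

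Forkhead factors recognise related DNA sequences, and the subfamilies differ mainly in where and when they are made. FOXA factors bind closed chromatin and open it in endoderm, FOXO factors carry insulin and stress signals under the control of AKT, FOXM1 drives mitotic genes, and FOXH1 brings SMAD proteins to Nodal targets. FOXD3 belongs to the stem cell and neural crest programmes. Many other members are known for roles in particular tissues later in development.

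Most forkhead genes had accessible chromatin at an end. A region lay within 1 kb of an outer limit of 37 of the 44 genes (84.1%, 95% Wilson interval 70.6 to 92.1%), against 62% of all protein-coding genes. It lay at both ends of 8 forkhead genes (18.2%, against 8.47%), among them Foxb2, Foxd4 and Foxe3, where a single region was within reach of both limits. The exceptions were Foxa1, Foxd3, Foxi1, Foxl1, Foxp3, Foxr2 and Foxs1. Of these 7, Foxa1 alone had regions inside the gene, so 6 members (13.6%) had none at an end or inside, against 26.4% of all protein-coding genes. Among members with a region at an end, the nearest region of Foxn1 was 0.745 kb from its limit. Among those without, Foxa1 had its nearest region 1.03 kb from a limit and Foxl1 1.91 kb.

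The members are compact, at a median of 5.19 kb from limit to limit, where protein-coding genes in general had 17.2 kb. Among the 26 members under 10 kb, an end region was present in 21 (80.8%, interval 62.1 to 91.5%). The share for all protein-coding genes of that length was 46%. Without olfactory and vomeronasal receptor genes, the share for short genes was 54.7%. Among the 18 members of 10 kb or more it was 16 (88.9%), and 71.1% for all genes of that length. The share was thus the higher in the family within either length class, and the difference was not tested. Regions at both ends were found in 7 of the 26 members under 10 kb (26.9%, against 9.70% of all such genes). Of the 18 longer members only 1 had them (5.56%, against 7.77%), too few to compare with that share. Length classes were added after the values were seen.

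Other families of developmental transcription factors gave shares on either side. The share was 17 of 19 for the Sox genes (89.5%, interval 68.6 to 97.1%). Of the Hox genes, which lie in tight clusters, it was 21 of 39 (53.8%, interval 38.6 to 68.4%), and of the Pax genes 2 of 9 (22.2%, interval 6.32 to 54.7%). The forkhead interval overlapped that of the Sox genes and lay above those of the Hox and Pax genes. Neighbouring genes share regions, so these intervals cover counting error only, and the families were not tested against each other.

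**Figure D1:**
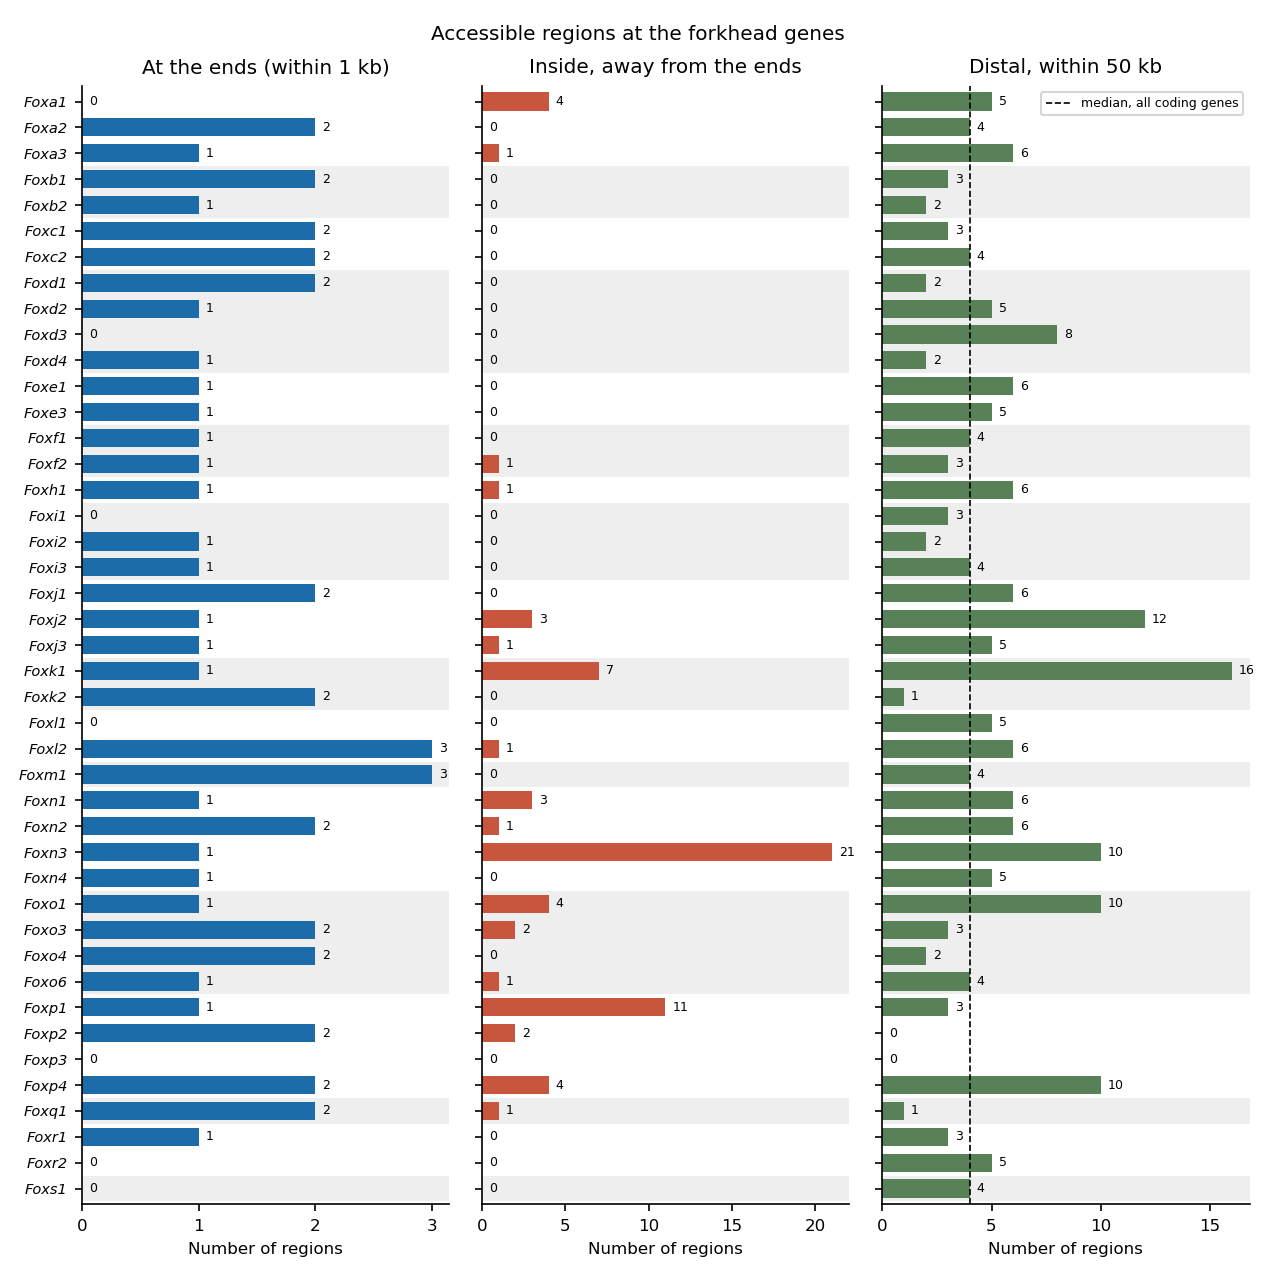
Number of accessible regions for each of 43 of the forkhead genes, with subfamilies in alternating shade. Bars count regions within 1 kb of either outer limit, regions inside the gene away from its ends, and distal regions within 50 kb of a limit (the dashed line is the median of all protein-coding genes, 4). Most members have 1 or 2 regions at the ends, while Foxn3 leads the inside counts with 21 and Foxk1 the distal counts with 16.

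The start of transcription was covered by a region in more members than it had one beside it, but the share with a region beside it was above that of all coding genes. The RefSeq promoter table gave a start and strand for 28 members. In Foxa1, Foxn3, Foxp1 and Foxr2 the outermost start in that table lies over 1 kb inside the outer limit of the gene. At the outermost start of each, 13 members (46.4%) had a region covering the start itself, close to the 51.2% of all 17492 coding genes in the table. In 9 further members (32.1%) the nearest region lay within 1 kb without covering the start, against 9.91% of all coding genes. These were Foxa1, Foxa2, Foxa3, Foxb2, Foxc1, Foxd4, Foxe3, Foxf2 and Foxp1. In 5 of the 9 the region preceded the start and in 4 it followed the start. Those of Foxa1 and Foxp1 preceded the start in the table but lay inside the outer limits of the gene. This measure was chosen after the values were seen and was not tested.

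The distances of these flanking regions were short. Before the start, the region of Foxc1 (161 bp wide) ended 35 bp away, that of Foxf2 (268 bp) 41 bp away and that of Foxa3 (1201 bp) 108 bp away. Before the outermost table starts of Foxa1 and Foxp1, regions of 118 and 254 bp lay 316 and 342 bp away. After the start, between the limits of the gene, regions lay in Foxa2 (357 bp), Foxb2 (73 bp), Foxd4 (684 bp) and Foxe3 (518 bp). They were 270, 581, 785 and 848 bp away. In Foxb2, Foxd4 and Foxe3, which are at most 2.07 kb long, that region was the only one and lay within 1 kb of both outer limits. Over all 54 distinct regions at forkhead ends, 24 (44.4%) covered an outer limit, against 58.6% of those at the ends of all protein-coding genes.

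**Figure D2:**
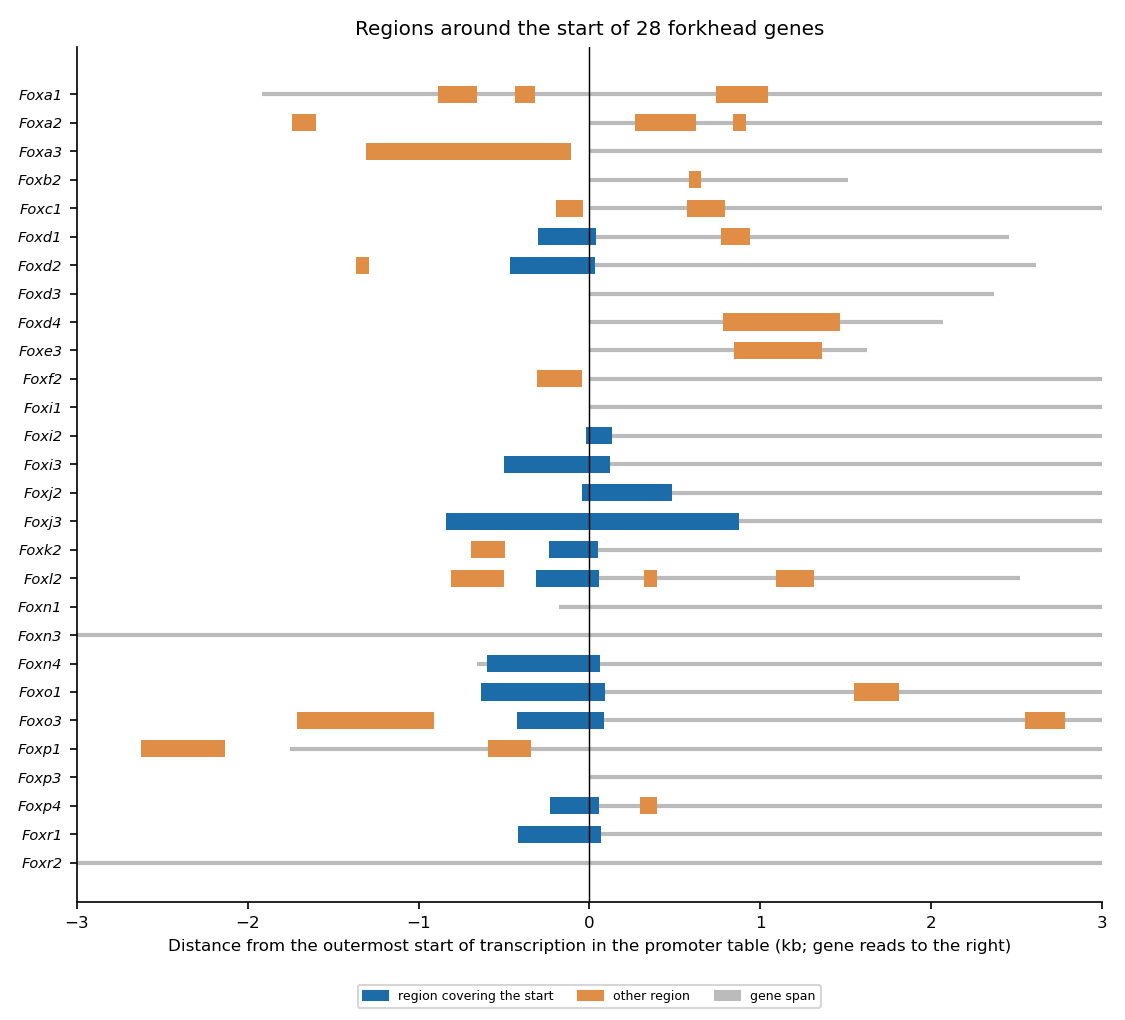
Regions (coloured bars) within 3 kb of the outermost start in the promoter table for the 28 forkhead genes with an entry, drawn to scale in kb, with the gene reading to the right (grey line). Blue bars cover the start, as in 13 genes. In 9 others, such as Foxc1, Foxf2 and Foxe3, the nearest region (orange) lies within 1 kb to one side, and Foxd3, Foxi1, Foxn1, Foxn3, Foxp3 and Foxr2 have no region within 3 kb of the start.

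Starts with and without a region differed in their content of CpG, the dinucleotide that is dense in the CpG islands of many vertebrate promoters. The promoters below are RefSeq sequences of GRCm38.p6, from 250 bases before to 50 bases after the start, and are shown so that this content can be seen, with each CpG in capitals. The promoters that lie wholly within the widest regions were those of Foxj3 (chr4:119539411-119539710, plus strand), Foxo1 (chr3:52268087-52268386, plus), Foxn4 (chr5:114273712-114274011, minus) and Foxi3 (chr6:70956356-70956655, plus). Each is written 5′ to 3′ along the gene.
Foxj3: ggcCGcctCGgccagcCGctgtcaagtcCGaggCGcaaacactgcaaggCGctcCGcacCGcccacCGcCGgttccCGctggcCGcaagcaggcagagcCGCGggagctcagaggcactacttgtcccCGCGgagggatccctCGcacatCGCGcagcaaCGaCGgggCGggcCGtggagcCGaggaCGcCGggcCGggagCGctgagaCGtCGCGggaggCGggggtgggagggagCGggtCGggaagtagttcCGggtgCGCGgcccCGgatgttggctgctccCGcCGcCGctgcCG
Foxo1: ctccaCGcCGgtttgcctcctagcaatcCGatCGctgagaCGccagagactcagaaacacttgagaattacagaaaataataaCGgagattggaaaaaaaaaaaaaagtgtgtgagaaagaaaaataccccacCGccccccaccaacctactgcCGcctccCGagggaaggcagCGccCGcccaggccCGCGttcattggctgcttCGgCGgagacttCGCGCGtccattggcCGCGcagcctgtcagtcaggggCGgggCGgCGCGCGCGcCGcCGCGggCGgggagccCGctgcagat
Foxn4: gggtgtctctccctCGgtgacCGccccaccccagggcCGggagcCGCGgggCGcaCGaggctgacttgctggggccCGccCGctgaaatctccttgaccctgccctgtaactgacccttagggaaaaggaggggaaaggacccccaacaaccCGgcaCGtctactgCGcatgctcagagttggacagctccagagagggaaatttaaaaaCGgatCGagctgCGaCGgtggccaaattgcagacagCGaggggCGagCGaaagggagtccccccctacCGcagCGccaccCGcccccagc
Foxi3: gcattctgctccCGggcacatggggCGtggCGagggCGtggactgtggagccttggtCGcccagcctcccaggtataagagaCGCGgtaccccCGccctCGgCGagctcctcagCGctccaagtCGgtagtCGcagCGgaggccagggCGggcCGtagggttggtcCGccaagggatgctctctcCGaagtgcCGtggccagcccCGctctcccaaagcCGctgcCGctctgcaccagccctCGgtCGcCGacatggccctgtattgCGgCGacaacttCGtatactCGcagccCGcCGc
These windows held 42, 31, 22 and 31 CpG, in the order shown. Their regions were 1714, 727, 663 and 623 bp wide.

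For contrast, the promoters of 4 members with no region at an end are shown, chosen after their values were seen. They are those of Foxa1 (chr12:57546062-57546361, minus strand), Foxd3 (chr4:99656049-99656348, plus), Foxi1 (chr11:34208040-34208339, minus) and the outermost of 2 for Foxp3 (chrX:7579426-7579725, plus).
Foxa1: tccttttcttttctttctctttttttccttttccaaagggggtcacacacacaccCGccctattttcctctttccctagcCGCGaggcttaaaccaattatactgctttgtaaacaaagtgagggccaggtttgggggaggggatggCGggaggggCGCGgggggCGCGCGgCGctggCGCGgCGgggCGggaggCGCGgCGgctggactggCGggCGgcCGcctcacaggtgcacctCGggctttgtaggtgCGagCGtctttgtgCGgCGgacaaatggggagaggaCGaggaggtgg
Foxd3: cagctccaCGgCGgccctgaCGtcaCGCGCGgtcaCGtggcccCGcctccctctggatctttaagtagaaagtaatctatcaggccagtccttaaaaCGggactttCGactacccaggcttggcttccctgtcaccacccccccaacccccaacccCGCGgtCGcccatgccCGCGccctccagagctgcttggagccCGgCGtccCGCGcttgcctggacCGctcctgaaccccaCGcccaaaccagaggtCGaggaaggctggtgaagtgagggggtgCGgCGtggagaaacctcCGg
Foxi1: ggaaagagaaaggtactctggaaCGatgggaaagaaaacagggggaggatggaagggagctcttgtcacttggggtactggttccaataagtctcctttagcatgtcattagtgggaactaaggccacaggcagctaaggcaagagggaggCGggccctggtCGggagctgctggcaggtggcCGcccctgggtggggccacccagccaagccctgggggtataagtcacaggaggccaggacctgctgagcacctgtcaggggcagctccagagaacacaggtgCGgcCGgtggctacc
Foxp3: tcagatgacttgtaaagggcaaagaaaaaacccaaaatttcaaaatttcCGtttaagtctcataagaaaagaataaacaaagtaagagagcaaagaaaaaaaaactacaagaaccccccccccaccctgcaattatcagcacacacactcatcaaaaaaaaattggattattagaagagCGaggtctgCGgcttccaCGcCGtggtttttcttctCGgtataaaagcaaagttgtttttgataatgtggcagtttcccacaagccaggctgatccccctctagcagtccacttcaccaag
Foxa1 and Foxd3 held 26 and 25 CpG, more than the 22 of Foxn4, whereas Foxi1 and Foxp3 held 6 each. The members without a region at an end thus included both CpG-rich and CpG-poor promoters.

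The observed to expected CpG ratio divides the CpG count by that given by the C and G content of the window. Its median was 0.68 over the 33 windows of the 28 members, against 0.57 over 21263 windows of all coding genes. Of the 33 windows, 18 (54.5%) were touched by a region, against 54.8% of all coding windows, so the family was at the background by this measure. Among windows with a ratio of 0.6 or more, 17 of 21 forkhead windows (81.0%) were touched, against 88.2% of all. Below that ratio it was 1 of 12 (8.33%), against 24.3%. The exception was Foxi2, with 5 CpG, a ratio of 0.20 and a region of 156 bp over its start. Foxk2 had the most CpG, 59, and its start lay in a region of 287 bp.

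High CpG without a region over the window was seen at 4 starts, those of Foxa1 (ratio 0.93), Foxd3 (0.79), Foxd4 (0.67) and an inner start of Foxa2 (0.68). In Foxa1, Foxa2 and Foxd4 a region lay 316, 585 and 785 bp from the start, and in Foxd3 the nearest was 4701 bp away. Among the 21 CpG-rich windows, 12 starts (57.1%) were covered by a region and 8 (38.1%) had one beside them within 1 kb. Over all CpG-rich coding windows these shares were 81.2% and 12.05%. The higher share of flanking regions was therefore also seen among CpG-rich starts alone, again without a test.

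**Figure D3:**
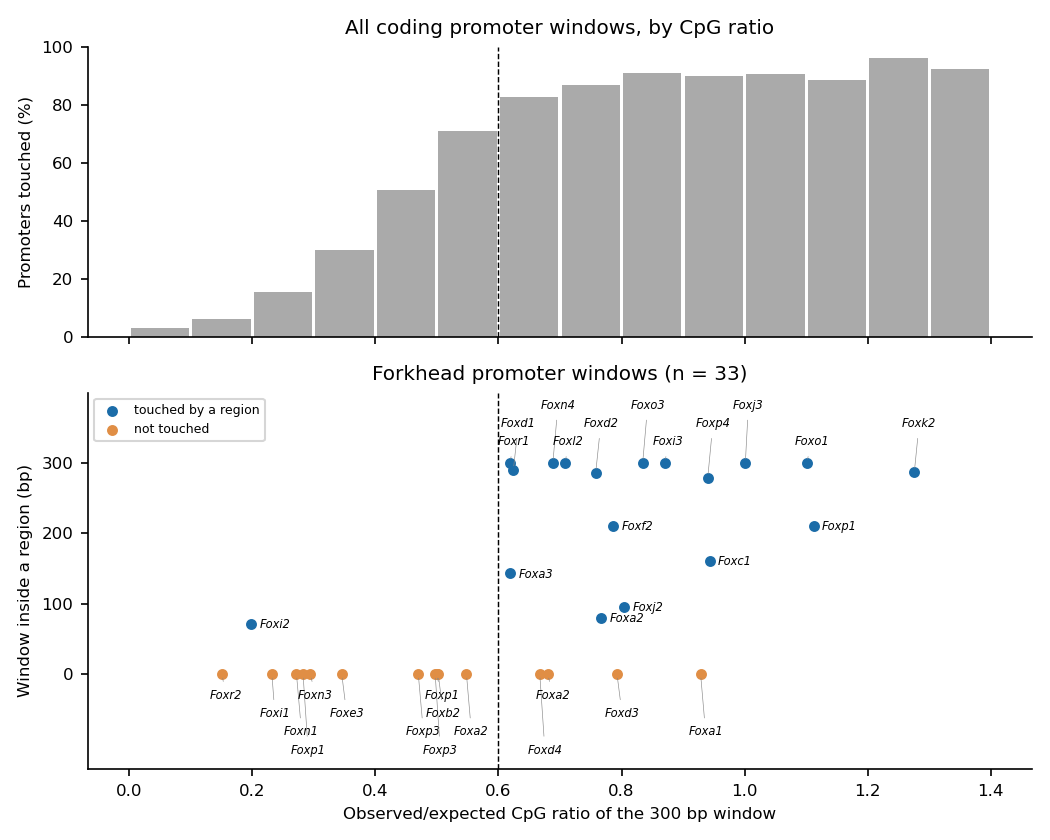
Upper panel, share of all coding promoter windows touched by a region, in classes of 0.1 of the observed to expected CpG ratio. Lower panel, for the 33 forkhead windows, the number of the 300 bases that lie in a region, in bp, against the same ratio; the dashed line marks 0.6. To the right of the line 17 of 21 forkhead windows are touched, and to the left only that of Foxi2.

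Regions at forkhead ends were somewhat narrower than those at gene ends in general, without a test. They had a median of 457 bp, with a middle range from 272 to 614 bp. Regions at the ends of all protein-coding genes had a median of 525 bp and a middle range from 272 to 790 bp, and all other regions a median of 246 bp. With ends of 500 bp the medians were 489 and 593 bp. At the start side alone, the forkhead median was 348.5 bp over 30 regions, with no matching value for all genes given here. The widest was that of Foxj3, with 1714 bp (chromosome 4, 119538823 to 119540536). Foxn2 had 1263 bp (chromosome 17, 88440210 to 88441472) and Foxa3 1201 bp (chromosome 7, 19023647 to 19024847). Foxo4 followed with 1104 bp (chromosome X, 101253985 to 101255088) and Foxp2 with 1030 bp (chromosome 6, 14899977 to 14901006). The region of Foxa3 touched Sympk, which encodes a scaffold of messenger RNA 3′ processing, and not Foxa3 itself.

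**Figure D4:**
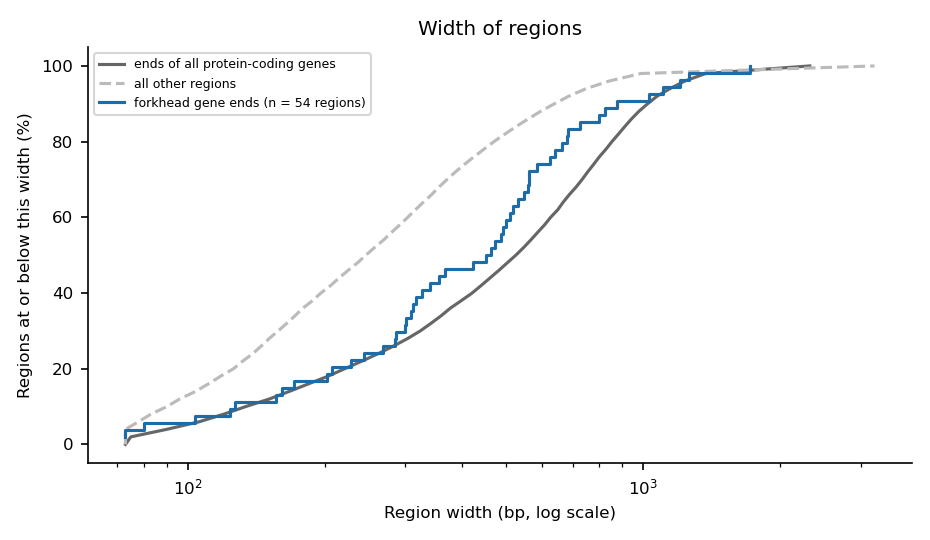
Cumulative share of regions against width in bp (log scale), for the 54 regions at forkhead gene ends (blue steps), regions at the ends of all protein-coding genes (solid grey) and all other regions (dashed). The forkhead median, 457 bp, lies between those of the other curves, 525 and 246 bp.

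Some end regions could belong to a neighbouring gene. Of the 54, 8 were also within 1 kb of an end of another protein-coding gene, with no matching share over all genes given here. All end regions of Foxa3 (with Sympk), Foxh1 (Ppp1r16a), Foxj3 (Frg2f1) and Foxm1 (Rhno1 and Tex52) were of this kind, as was 1 region each of Foxj1 (Rnf157) and Foxo4 (Gm614). Counting only end regions shared with no other protein-coding gene, 33 members (75%) had one, against 48.4% of all protein-coding genes. This count was added after the values were seen.

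Each of the FOXA genes, which act in endoderm, liver and pancreas, had a region within 1 kb of its outermost table start but none covering it. Foxa1 had no region within 1 kb of its outer limits and 4 inside, of 73, 309, 118 and 227 bp. Those of 118 and 227 bp (chromosome 12, 57546427 to 57546544 and 57546769 to 57546995) also lay at an end of Ttc6. Foxa2 had regions of 80 and 357 bp within its upper 1 kb and 4 distal regions of at most 194 bp, and no other protein-coding gene lay within 50 kb. Foxa3 had 1 inside region of 126 bp, and of its 6 distal regions only this one had Foxa3 as the nearest protein-coding gene. Apart from the wide region by Sympk, no FOXA gene had a region over 357 bp at its ends or inside.

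Foxd3, the member most closely tied to pluripotent cells, had no region at its ends or inside, and several at a distance on either side. It had 8 distal regions within 50 kb, a count reached by 16.5% of protein-coding genes. They lay from 2.33 to 19.7 kb from the gene, 4 on either side, and no other protein-coding gene was within 50 kb. The widest were 1084 bp (chromosome 4, 99650020 to 99651103), 5.20 kb before the gene, and 910 bp (99641649 to 99642558), 13.7 kb before it. The nearest, of 196 bp (99661000 to 99661195), lay 2.33 kb beyond its far end. The CpG-rich promoter printed above lay in the gap.

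The other FOXD genes each had a region at an end. Foxd1, a gene of kidney stroma and forebrain, had regions of 340 and 171 bp, the first over its start. Foxd2 had 499 bp over its start, and Foxd4 684 bp within 1 kb of both limits. Their distal counts were 2, 5 and 2. Of the FOXB genes of the developing brain, Foxb1 had regions of 244 and 462 bp and 3 distal regions, and Foxb2 had a single region of 73 bp, the minimum width of the list, and 2 distal regions.

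Neighbouring forkhead genes of the C, F, L and Q subfamilies form groups on chromosomes 8 and 13, each with a FOXC and a FOXF gene, which act in mesoderm and its vessels. On chromosome 8, Foxf1, Foxc2 and Foxl1 lie in 46.3 kb, with gaps of 28.02 and 8.79 kb. Foxf1 had 585 bp (121083414 to 121083998) before its lower limit. Foxc2 had 207 bp over its lower limit (121115982 to 121116188) and 127 bp within 1 kb above it (121116805 to 121116931). Foxl1 had none at an end or inside. The nearest region to Foxl1 was 436 bp wide (121125338 to 121125773), 1.91 kb away and 6.44 kb from Foxc2. The span held 7 regions, or 15.1 per 100 kb, against 3.05 per 100 kb over the autosomes from first to last gene. The span is cut at gene limits and was not compared with spans of like gene density, and the difference was not tested. None of the 7 regions was wider than 436 bp. Those of 118, 195 and 371 bp, between Foxf1 and Foxc2, touched another protein-coding gene, Mthfsd. Summed over the 3 genes there were 13 distal regions, but only 5 distinct ones, since the genes lie within 50 kb of the same regions.

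On chromosome 13, Foxq1, Foxf2 and Foxc1 lie in 252 kb, with gaps of 64.8 and 175 kb. All 3 had regions at an end, of 300 bp (31557813 to 31558112) and 326 bp (31559792 to 31560117) in Foxq1, 268 bp (31625508 to 31625775) in Foxf2, and 161 bp (31806451 to 31806611) and 228 bp (31807215 to 31807442) in Foxc1. Foxf2 also had 374 bp inside and Foxq1 216 bp. The span held 13 regions, or 5.15 per 100 kb, with none over 374 bp. In both groups the FOXC gene thus had a narrow region at or just below its lower limit and another within the gene, and no region exceeded 585 bp at any of the 6 genes. Foxd2 and Foxe3 on chromosome 4 are neighbours as well, 15.5 kb apart, and shared all 5 of their distal regions, none over 228 bp.

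Genes for epithelial and sensory tissues varied within a letter. Foxe1, needed for the thyroid, had 823 bp over its lower limit, and Foxe3, needed for the lens, 518 bp within 1 kb of both limits. Foxi3, of ear and tooth placodes, had 623 bp over its start and a region of 966 bp 2.78 kb beyond the gene. Foxi2 had 156 bp, and Foxi1, of inner ear and ionocytes, had none at an end or inside. The nearest region to Foxi1 was 15.0 kb away (379 bp, chromosome 11, 34223137 to 34223515), with Dock2 as its nearest protein-coding gene, as for the other 2 distal regions of Foxi1. Foxl2, the ovarian factor, had 309, 368 and 73 bp at its start, and 223 bp inside.

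Foxh1, whose product carries Nodal signals in early embryos, had 452 bp at its upper limit, shared with Ppp1r16a, and 333 bp inside. It lies among 12 other protein-coding genes within 50 kb, and only the inside region of its 6 distal regions had Foxh1 as the nearest. Of 13 genes of the Nodal and SMAD pathway, 11 had a region at an end (84.6%, interval 57.8 to 95.7%), all but Lefty2 and Mixl1. The 62% of all protein-coding genes lies within that interval. Tdgf1, the Nodal co-receptor, had the widest, of 1779 bp, and Lefty1, a Nodal antagonist, the most distal regions, 13. Nodal itself had 100 bp at an end and 9 distal regions. The pathway genes had a median of 8 distal regions, against 4 for all protein-coding genes, and this was not tested.

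Foxm1, which drives mitotic gene expression, had 561 bp over its lower limit (chromosome 6, 128362832 to 128363392). That region was also within 1 kb of an outer limit of Rhno1. Foxm1 had a further 124 bp beside it and 301 bp at the upper limit near Tex52. None of its 4 distal regions had Foxm1 as nearest gene. All 11 of its well-known mitotic targets listed here had a region at an end, among them Ccnb1 with 581 bp, Plk1 with 800 bp, Birc5 with 1258 bp and Aurkb with 364 bp. The share over all protein-coding genes was 62%. Their median distal count was 4, equal to that of all protein-coding genes.

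All 4 FOXO genes had a region at an end. The start of Foxo1 lay in 727 bp (chromosome 3, 52267701 to 52268427) and that of Foxo3 in 510 bp (chromosome 10, 42276611 to 42277120), with another of 801 bp before it. The X-linked Foxo4 had 1104 bp at its lower and 641 bp at its upper limit, and Foxo6 559 bp beyond its upper limit. Distal counts differed, with 10 at Foxo1, 4 at Foxo6, 3 at Foxo3 and 2 at Foxo4. All 10 regions of Foxo1 had it as the nearest gene, with no other protein-coding gene within 50 kb. They included 4 inside the gene, of at most 270 bp, and 1 of 695 bp (chromosome 3, 52253809 to 52254503), 13.8 kb before the start.

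Of 15 regulators of FOXO proteins, 11 had a region at an end (73.3%, interval 48.0 to 89.1%). Pik3r1, a PI3-kinase subunit gene, had 1684 bp. Sgk1, Skp2 and Ywhaz were among those with none at an outer limit, and had 6, 4 and 4 regions inside. Of 13 FOXO target genes, 12 had a region at an end (92.3%, interval 66.7 to 98.6%), among them Cdkn1b, which encodes the inhibitor p27, with 918 bp, and Sesn3 with 1115 bp. G6pc, the liver glucose-6-phosphatase gene, was the one without. The 62% of all protein-coding genes lies within the interval of the regulators and below that of the targets. Both intervals overlapped that of the forkhead genes.

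Distal regions had the same median number near forkhead genes as near all protein-coding genes, but not within length classes. The median was 4 per gene (quartiles 3 and 6, range 0 to 16), against 4 (quartiles 2 and 6) over all protein-coding genes. More than 4 were found at 20 members (45.5%), against 40.7% of all, and none at Foxp2 and Foxp3 (4.55%, against 9.26%). Under 10 kb the medians were 4 for members and 3 for all genes, and from 10 kb upward 5 and 4. With windows of 25 kb they were 3 and 2. None of these differences was tested. The counts include regions inside a gene when they lie within 50 kb of its limit. The 207 distal regions summed over members were 194 distinct ones. In 116 of the 207 cases the member was the nearest protein-coding gene, with no matching share over all genes given here.

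**Figure D5:**
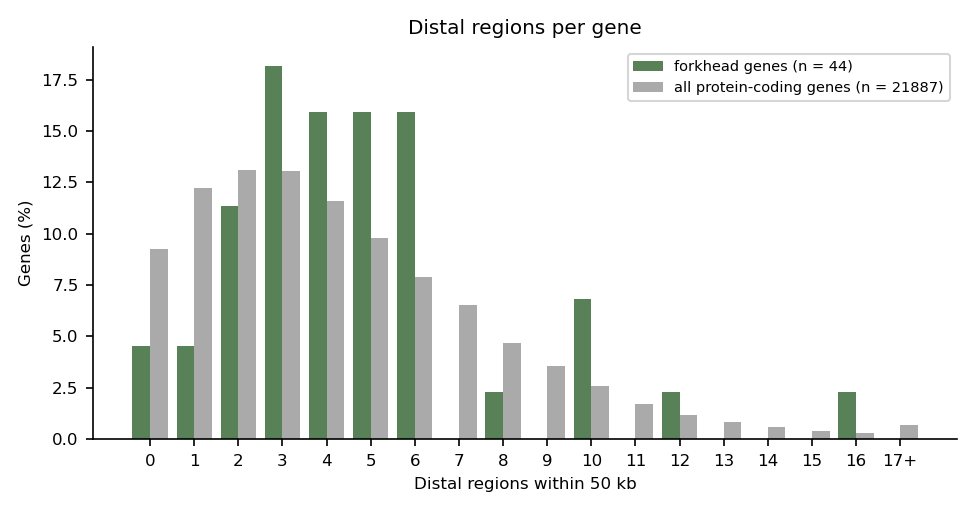
Share of genes (%) by number of distal regions within 50 kb of an outer limit, for the 44 forkhead genes (green) and all 21887 protein-coding genes (grey). Both have a median of 4, with Foxk1 at 16 and Foxj2 at 12 to the right of the other members.

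The FOXK genes, whose products act in metabolism and muscle progenitors, had very different counts. Foxk1 had 16 distal regions, and Foxk2 had 1, of 73 bp. The count of Foxk1 was reached by 0.991% of protein-coding genes of any length, a share not matched for its 60.5 kb. For 13 of the 16, Foxk1 was the nearest gene. They included 7 regions inside it, the widest of 1027 bp (chromosome 5, 142439949 to 142440975) and 838 bp (142451378 to 142452215). Outside the gene the widest, of 809 bp (142367064 to 142367872), lay 33.6 kb away. At the ends the genes were more alike, with 313 bp at Foxk1 and 202 and 287 bp at Foxk2.

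Of the FOXJ genes, Foxj2 had 12 distal regions, a count reached by 3.94% of protein-coding genes of any length. Only 3 of them, inside the gene, had Foxj2 as nearest gene, while 7 were nearest to Slc2a3, a glucose transporter gene, and 2 to Necap1. The widest, of 1172 bp (chromosome 6, 122810446 to 122811617), lay 8.57 kb from Foxj2 and 8.08 kb from Slc2a3. The pluripotency gene Nanog, with 14 distal regions of its own, ends 106 kb from Foxj2 on the side of Slc2a3. The start of Foxj2 was covered by 530 bp. Foxj1, the master gene of motile cilia, had 877 bp at its lower and 547 bp at its upper limit, the latter near Rnf157, and 6 distal regions.

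Most regions inside forkhead genes lay in a few members. In all, 19 members (43.2%) had a region inside and away from the ends, the same share as the 43.2% of all protein-coding genes. Within length classes the shares differed, at 23.1% of members under 10 kb against 9.67% of all such genes, and 72.2% of longer members against 62.2%, with no test. Of the 70 such regions, 51 lay in 6 genes, namely Foxn3 with 21, Foxp1 with 11, Foxk1 with 7, and Foxa1, Foxo1 and Foxp4 with 4 each. Length did not fix the count, since Foxa1 is 7.40 kb long and Foxp2, at 541 kb, had 2. Per 100 kb of gene, the median over the 18 members of 10 kb or more was 2.12, against 2.09 over all genes of that length. Foxj2 (12.9), Foxa3 (12.1), Foxk1 (11.96) and Foxn1 (11.03) had the highest densities, of which those of Foxa3, Foxj2 and Foxn1 rested on 1, 3 and 3 regions. Inside regions had a median width of 258 bp.

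In Foxn3, a repressor gene of 374 kb, 18 of the 21 inside regions formed a run of 114 kb with no gap over 20 kb (chromosome 12, 99298913 to 99413024). The widest were 650 bp (99343135 to 99343784) and 630 bp (99412075 to 99412704). Neighbouring regions of 486, 342 and 173 bp in the run, from 99391972 to 99393917, also lay at an end of another protein-coding gene, Gm51999. At its upper limit Foxn3 had 317 bp, and its 10 distal regions all had Foxn3 as nearest gene. Foxn2 had 1263 and 423 bp at its lower limit and Foxn4, of retina and spinal cord, 663 bp. Foxn1, whose loss gives the hairless and athymic nude mouse, had no region within 1 kb of its outermost table start. Its regions lay at the far end (472 bp) and inside, of 895, 511 and 337 bp.

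The FOXP genes, which act in brain, lung and lymphocytes, differed widely in length and in regions. Foxp1 (597 kb) had 492 bp at its upper limit and 11 regions inside, or 1.85 per 100 kb. The widest, of 557 bp (chromosome 6, 99028338 to 99028894), lay 40 bp before an inner start in the promoter table. Foxp2 (541 kb), known for its role in vocal learning, had 1030 and 560 bp at its lower limit, only 2 regions inside (0.37 per 100 kb) and no distal region. Foxp4 (57.5 kb) had 104 and 285 bp at its start, 10 distal regions and 4 inside, the widest of 971 bp (chromosome 17, 47887394 to 47888364). Foxp3, the defining factor of regulatory T cells, had no region at its ends or inside and no distal region. Those within 50 kb lay at the ends of other genes, the nearest of them at Ppp1r3f (805 bp, chromosome X, 7574052 to 7574856), 4.82 kb before the start of Foxp3.

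The remaining members without regions of their own were Foxr2 on chromosome X and Foxs1 on chromosome 2. The nearest region to Foxr2 lay 6.78 kb away (810 bp, 153139645 to 153140454), and all 5 of its distal regions touched Rragb. The nearest to Foxs1, a gene of the vessel wall, lay 17.2 kb away (486 bp, 152914252 to 152914737) and touched Mylk2, and its 4 distal regions had Tpx2, Mylk2 and Ttll9 as nearest genes. Foxr1, the other FOXR gene, had its start covered by 486 bp (chromosome 9, 44440800 to 44441285). Hence the letter of a subfamily did not fix the pattern: the A, D, I, L, P and R subfamilies each held members with and without a region at an end.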

How the data were processed

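The authors deposited 1 list of accessible regions for the series, with a start and an end in base pairs and no count, score or value per library. Per the submitters' processing notes, cutadapt, Bowtie2, Picard, SAMtools, bedtools and MACS2 2.1.1 were used with GRCm38 (mm10). Parameters, the Tn5 shift, blacklisting and how libraries were merged: not given in the sources used here. Thus a region open in 1 library may count like one open in all 8.

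Regions were set against outer limits of RefSeq genes of GRCm38.p6 (21887 protein-coding, nuclear). A region was at an end if at least 1 bp lay within 1 kb of a limit, inside if it touched the gene elsewhere, and distal if within 50 kb of a limit and within 1 kb of no protein-coding gene's limit. Coordinates are counted from 1. Promoter windows of 300 bases were matched by symbol for 28 of 44 members.

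No test was made, since no value per library was available; families and lists are described by counts with 95% Wilson intervals, which cover counting error only. Members and lists were chosen with earlier results of these data known. Values of 1 member and of 2 genes of the FOXO regulator list are not reported here one by one, but are counted in all totals. The other members are named, and coordinates are given for the 5 with the widest end region, the most inside and the most distal regions (and ties), those with none, and the groups on chromosomes 8 and 13. Coordinates of further regions were added after their values were seen. The overlap code (Python 3.11.15, numpy 2.4.6, pandas 2.3.3) was tested on simulated data against a direct count.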

Additional observations from a re-analysis of the deposited data

How the results depend on the processing

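No paired analysis was possible because single libraries have no values in the list, which also means that no replicate was left out and no depth can be given. The forkhead share with an end region ranged from 72.7% to 88.6%. The lower value kept only regions wider than 281 bp, the median of the list, and the higher used ends of 2 kb. Over all protein-coding genes these settings gave 54.5% and 67.0%. With ends of 500 bp the forkhead share was 75%, against 57.8%. At the start side alone it was 78.6%, against 59.0% of all coding genes in the promoter table. The forkhead share was the higher in all 8 alternatives, without a test. It also stayed within its main interval, which covers counting error and does not measure the effect of a setting. Of 20 alternatives, 16 were counted as unchanged and 4 as moved, but some of the 16 differed visibly from the main values. With windows of 25 kb the distal median was 3, against 4 in the main count. The median width of end regions at the start side alone was 348.5 bp, against 457 bp. The 4 that moved were as follows. The median of distal regions was 7 with windows of 100 kb (also 7 over all protein-coding genes), 2 with only wider regions (1 over all), and 2 counting only regions with the member as nearest gene. Regions inside members numbered 31 when only wider ones were kept.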

Other observations

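Of the 54 regions at forkhead ends, 9 (16.7%) lay within 1 kb of an end of a gene that is not protein-coding, against 13.9% of the regions at the ends of all protein-coding genes, a share near the background. Those of Foxf1, Foxd2, Foxb1, Foxe1, Foxn3 and Foxp4 adjoined Fendrr, Foxd2os, B230323A14Rik, Gm12446, Gm26839 and Gm46601. All 3 end regions of Foxl2 adjoined Foxl2os, named as its opposite strand gene. Fendrr is a long non-coding RNA gene of the lateral mesoderm, and the region it shares with Foxf1 was 585 bp wide, the widest of those at the chromosome 8 group.

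The forkhead core motif GTAAACA was searched on both strands of the 33 forkhead promoter windows and found in 1 (3.03%), against 3.01% of all coding windows. The match lay in the Foxa1 window, 141 bases before the start at chr12:57546235-57546263, outside any region, and is shown on the gene's strand with the motif in capitals.
Foxa1 site: tatactgctttGTAAACAaagtgagggcc
The octamer ATGCAAAT, bound by POU factors, was found in none of the 33, against 1.66% of all coding windows. The GC box GGGCGG was present in 24 of 33 (72.7%, against 46.2%), and in 17 of the 18 touched by a region (94.4%). Of all coding windows touched by a region 69.1% held it, and of those not touched 18.5%. CCAAT was found in 15 (45.5%, against 38.2%) and TATAAA in 3 (9.09%, against 12.6%). A match is a description of letters and not a site. Each motif was counted by itself on both strands, and overlaps between motifs were allowed.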
